A study of Homo sapiens with 4 samples.

Results

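MicroRNAs of the imprinted 14q32 region are the subject of these results: 42 features of a human microRNA chip, out of 856, that a list of miRBase mature-sequence accessions (MIMAT numbers) assigned to the locus between the genes DLK1 and DIO3. The list names microRNAs by locus and not by signal, though it was chosen with earlier results of these data known. All 42 accessions on it were found in the deposited table. KYSE-520, KYSE-450, KYSE-960 and KYSE-890 are 4 established lines from human squamous carcinomas of the oesophagus, and the total RNA of each, labelled with the dye Hy5, was hybridized to an array of its own, 1 per line. All were kept in the same medium and serum, the labels give no treatment or genotype, and no normal oesophageal tissue was among the samples. Since no line was measured again, replicate error is unknown, and every difference below is a description without a test.

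The 14q32 microRNAs are among the largest microRNA clusters of the human genome. They are cut from long non-coding transcripts that, at this imprinted locus, are made from the chromosome inherited from the mother, while the protein genes DLK1, RTL1 and DIO3 are expressed from the paternal copy. The cluster is known for expression in the embryo, the placenta and the brain and for low expression in most adult epithelia. Well-studied members are miR-127, which lies antisense to RTL1, and miR-134, which acts in neuronal dendrites in rodents.

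In RefSeq (GRCh38.p14), the 33 microRNA numbers that the list names corresponded to 39 microRNA genes with 74 mature names. Their mature sequences lay within 197.7 kb of chromosome 14, at chr14:100869075-101066786, and all 39 genes were on the plus strand. DLK1, at chr14:100726892-100738224, and the non-coding gene MEG3, at chr14:100826108-100861026, lay before them, and DIO3, at chr14:101561495-101563452, after them. Of the 39 genes, 5 lay within the span of RTL1 (MIR431, MIR433, MIR127, MIR432 and MIR136), 4 within MIR381HG (MIR381, MIR487B, MIR539 and MIR655) and 1, MIR370, within MEG8. The mature sequences of the locus had a median GC share of 45.5%, with a range of 23.8% to 72.7%, against a median of 52.2% over the other 2296 human mature names.

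Seeds, the bases at positions 2 to 8 through which a microRNA pairs with its targets, were mostly different within the locus, with 66 seeds among the 74 names. Only 7 seeds were held by more than 1 name, 15 names in all. The sequences shown are the one arm that the list names outright, miR-127-3p, the miR-376 family, whose near-identical members a probe may not separate, and 2 other pairs of 3p arms with a common seed. They are printed 5′ to 3′ with the seed in capitals.
miR-127-3p: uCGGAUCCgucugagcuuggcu
miR-376a-3p: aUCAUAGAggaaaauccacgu
miR-376b-3p: aUCAUAGAggaaaauccauguu
miR-376c-3p: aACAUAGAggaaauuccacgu
miR-154-3p: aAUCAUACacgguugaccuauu
miR-487a-3p: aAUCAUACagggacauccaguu
miR-485-3p: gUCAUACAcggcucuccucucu
miR-539-3p: aUCAUACAaggacaauuucuuu

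Counting positions from 1 at the 5′ end over the shared 21 bases, miR-376a-3p and miR-376b-3p differed by C19U alone, and both carry the seed UCAUAGA. From miR-376a-3p to miR-376c-3p there were 2 differences, U2A and A14U, the first of them inside the seed. The pairs miR-154-3p with miR-487a-3p and miR-485-3p with miR-539-3p each share a seed and differ outside it. The deposited table and the RefSeq tables used here do not set the MIMAT accessions beside microRNA names, so each feature is given below by accession only, and no intensity is assigned to a named microRNA or to one of these sequences.

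Of the 42 listed features of the cluster, 40 were not above background in any of the 4 lines. In bulk RNA of a culture, few cells with a microRNA and little of it in every cell cannot be told apart. A feature was called above background when its deposited intensity exceeded the median of its array by 3 times an SD estimated from the dim side of that median, which put the threshold at 146.2 intensity units in KYSE-520 and 134.5 in KYSE-450, with 129.7 in KYSE-960 and 128.3 in KYSE-890. Of the 42 members, 2 passed in KYSE-520 and 1 in each of KYSE-450, KYSE-960 and KYSE-890. Over all 856 features the shares that passed were 17.5% in KYSE-520 and 13.8% in KYSE-450, with 11.0% in KYSE-960 and 11.1% in KYSE-890, so the members' shares, 4.76% in KYSE-520 and 2.38% in each other line, were below the background share every time.

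Taking the lines together, 2 of 42 members (4.76%) passed on at least 1 array, against 19.6% of all features, and 1 of 42 (2.38%) passed on all 4, against 8.76% of all features. Later accession numbers were given to microRNAs found later, so the 278 other features whose numbers lie between the lowest and the highest of the members were also counted, a comparison chosen after seeing the data. Of these, 44 (15.8%) passed on at least 1 array. Their shares per line were 14.4% in KYSE-520 and 9.71% in KYSE-450, with 6.83% in KYSE-960 and 6.12% in KYSE-890, each above that of the 14q32 features.

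**Figure D1:**
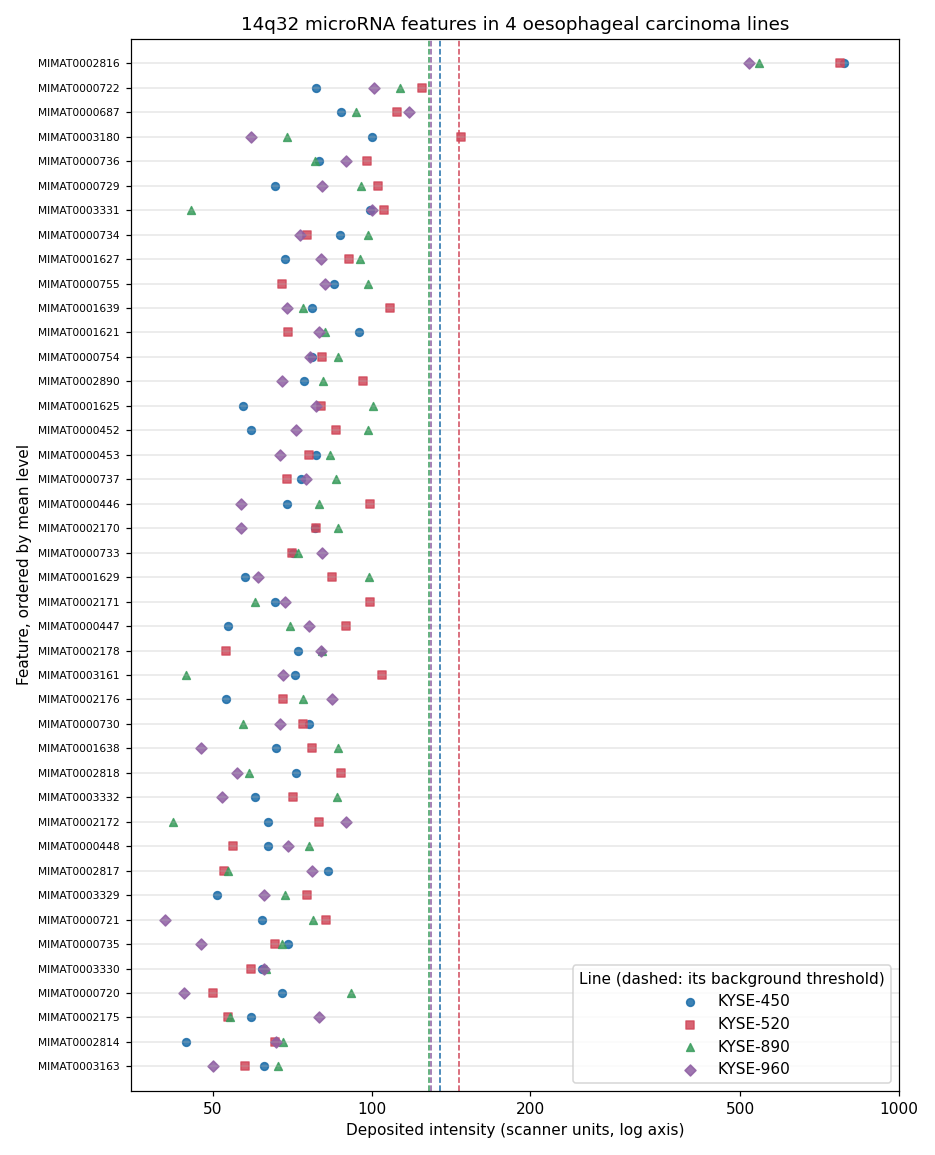
Deposited intensity (horizontal log axis, scanner units) of each of the 42 features of the 14q32 cluster (rows, ordered by mean level relative to the array median), with 1 symbol per line and each line's background threshold as a dashed line in its colour. MIMAT0002816 lies between 520.0 and 785.5 in all 4 lines, MIMAT0003180 touches the threshold in KYSE-520 at 147.5, and every other symbol lies to the left of its own line's threshold.

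The exception was MIMAT0002816, the one member above background in every line. Its deposited intensity was 772.0 in KYSE-520 and 785.5 in KYSE-450, with 520.0 in KYSE-960 and 543.5 in KYSE-890. KYSE-450 and KYSE-520 were close to each other and brighter, and KYSE-890 and KYSE-960 were close to each other and dimmer. Relative to the median of its own array, the ratio was 9.03 in KYSE-520 and 9.97 in KYSE-450, with 6.71 in KYSE-960 and 6.75 in KYSE-890. Among the 856 features MIMAT0002816 ranked 56th in KYSE-520 and 46th in KYSE-450, with 16th in KYSE-960 and 24th in KYSE-890, so its rank was higher on the arrays on which its intensity was lower. The intensities of the other 41 members stayed at or under 147.5 everywhere.

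MIMAT0003180 was the member nearest the threshold from above. It measured 147.5 in KYSE-520 and 100 in KYSE-450, with 59.0 in KYSE-960 and 69.0 in KYSE-890. It exceeded the threshold of KYSE-520 by a factor of 1.01 and stayed under the thresholds of the other 3 lines. With the dim-side SD taken instead as the distance from the 16th percentile to the median, an alternative chosen after seeing the data, the threshold of KYSE-520 lay at 150.0 and MIMAT0003180 fell under it. The count of members above background in KYSE-520 was therefore 2 or 1, depending on how this SD was estimated.

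Nearest under the thresholds were MIMAT0000687, MIMAT0000722, MIMAT0001625, MIMAT0001629 and MIMAT0003331. MIMAT0000687 reached 0.91 of the threshold in KYSE-960 and measured 111.5 in KYSE-520 and 87.5 in KYSE-450, with 117.5 in KYSE-960 and 93.5 in KYSE-890. MIMAT0000722 reached 0.88 of the threshold in KYSE-890 and measured 124.5 in KYSE-520 and 78.5 in KYSE-450, with 101 in KYSE-960 and 113.0 in KYSE-890. Both lay above the members' upper quartile in all 4 lines, and MIMAT0000687 was, with MIMAT0002816, one of the only 2 members that were nowhere under the array median.

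The other near features reached less, at most 0.78 of the threshold for MIMAT0001625 and 0.77 for MIMAT0001629 and MIMAT0003331. Members next in order reached about as much, at 0.77. MIMAT0001625 measured 80.0 in KYSE-520 and 57.0 in KYSE-450, with 78.5 in KYSE-960 and 100.5 in KYSE-890. MIMAT0001629 measured 84.0 in KYSE-520 and 57.5 in KYSE-450, with 61.0 in KYSE-960 and 99 in KYSE-890, and both were highest in KYSE-890. MIMAT0003331, by contrast lowest in KYSE-890, measured 105.5 in KYSE-520 and 99.5 in KYSE-450, with 100 in KYSE-960 and 45.5 in KYSE-890. MIMAT0000736, the fifth brightest member by mean level, measured 98.0 in KYSE-520 and 79.5 in KYSE-450, with 89.5 in KYSE-960 and 78.0 in KYSE-890.

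The dimmest members by mean level were MIMAT0003163, MIMAT0002814 and MIMAT0002175. MIMAT0003163 measured 57.5 in KYSE-520 and 62.5 in KYSE-450, with 50 in KYSE-960 and 66.5 in KYSE-890. MIMAT0002814 measured 65.5 in KYSE-520 and 44.5 in KYSE-450, with 66.0 in KYSE-960 and 68.0 in KYSE-890. Both were under the array median in every line, as were 6 further members, MIMAT0000448, MIMAT0000721, MIMAT0000730, MIMAT0000735, MIMAT0003329 and MIMAT0003330. MIMAT0002175 measured 53.5 in KYSE-520 and 59.0 in KYSE-450, with 79.5 in KYSE-960 and 54.0 in KYSE-890, and was above the array median in KYSE-960 alone.

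As a group the members lay at or slightly under the middle of each array. In KYSE-520 their median intensity was 79.0, against 86.0 for the other 814 features. In KYSE-450 the members' median was 70.25, against 79.5 for the others. In KYSE-960 it was 70.75, against 77.5, and in KYSE-890 78.75, against 80.75. On the log2 scale the median member's distance to the array median was -0.11 in KYSE-520 and -0.17 in KYSE-450, with -0.13 in KYSE-960 and -0.03 in KYSE-890. Members under the array median numbered 26 of 42 in KYSE-520 and 33 in KYSE-450, with 27 in KYSE-960 and 22 in KYSE-890.

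The others include more bright features, so the dim features alone were also set side by side. Among features never above background, the 40 members had medians of 77.75 in KYSE-520 and 69.25 in KYSE-450, with 70.75 in KYSE-960 and 78.75 in KYSE-890, and the 648 others had 80.5 in KYSE-520 and 73.5 in KYSE-450, with 74.5 in KYSE-960 and 77.5 in KYSE-890. The members' median was lower than that of the others in 3 lines and higher in KYSE-890, by at most 4.25 units. With bright features included again, only 2 of 42 members (4.76%) were nowhere under the array median, against 21.5% of all features. The latter share holds the 8.76% of all features that were above background on all 4 arrays. Under the median on all 4 arrays were 8 members (19.05%), against 16.7%. The most frequent case was a member at or above the median on a single array. It held for 19 of 42 (45.2%), against 23.6% of all features, bright ones included.

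**Figure D2:**
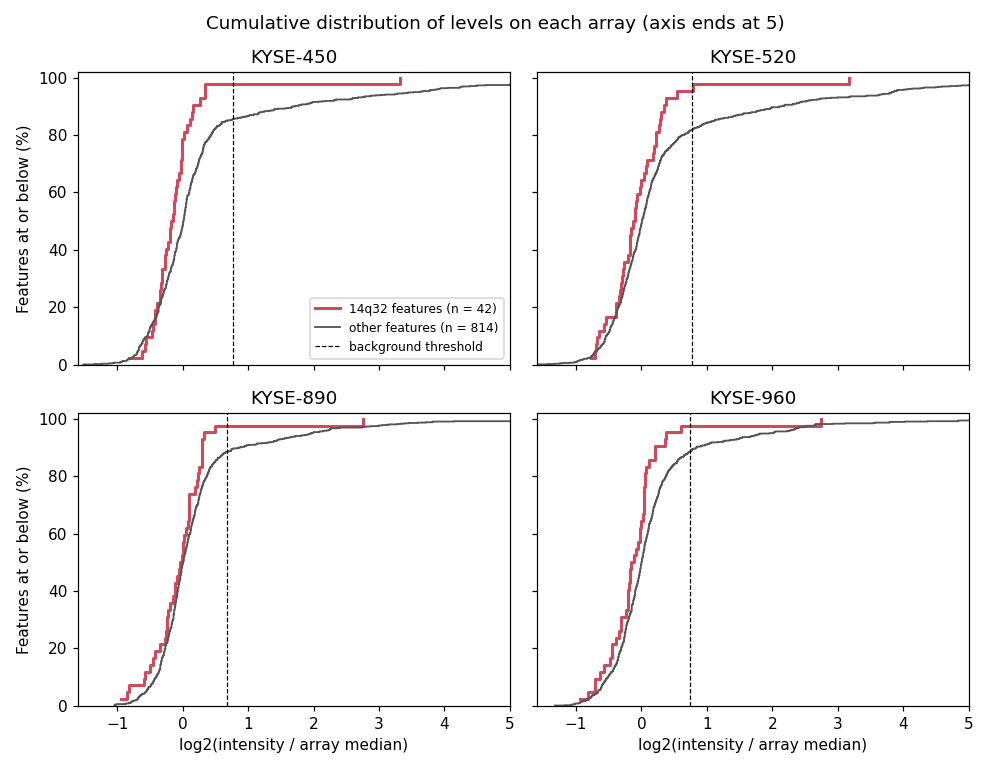
Cumulative share of features (vertical axis, percent) at or below a given log2 ratio of intensity to the array median (horizontal axis, drawn to 5), with 1 panel per line, the 42 features of the 14q32 cluster in red, the other 814 in grey and the background threshold dashed. The red curve is at 97.6% by the threshold in KYSE-450, KYSE-890 and KYSE-960, and the grey curve lies below it there because more of the other features are bright.

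The order of the dim members was only weakly shared between lines. Over the 40 members never above background, Spearman's rho between arrays was 0.21 for KYSE-450 with KYSE-520, 0.11 for KYSE-450 with KYSE-890 and 0.34 for KYSE-450 with KYSE-960. It was 0.18 for KYSE-520 with KYSE-890, 0.24 for KYSE-520 with KYSE-960 and 0.10 for KYSE-890 with KYSE-960. Over the 648 other features never above background it was between 0.20 and 0.31. These correlations are across features, which share an array, its spots and its background, and are given as a description. The deposited intensities of a dim member spanned a median of 1.53-fold between its lowest and highest line, with a range of 1.07 to 2.35, against a median of 1.5-fold and a range of 1.06 to 3.16 for the other dim features. A span of at least 2-fold occurred in 5 of the 40 dim members (12.5%) and in 54 of the 648 other dim features (8.33%).

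Differences between lines were counted after quantile normalization, which forces all arrays onto one common distribution, with values under the array median raised to it. Features under the median on all 4 arrays were left out, leaving 713 features and 34 members. No member differed by 2-fold or more between KYSE-450 and KYSE-520, where 2.81% of all features did, or between KYSE-890 and KYSE-960, where 5.05% did. In each of the other 4 pairs 1 of 34 members (MIMAT0002816) was at least 2-fold lower in KYSE-520 or KYSE-450 than in KYSE-960 or KYSE-890. The shares of all features that were lower by as much were 5.75% for KYSE-450 against KYSE-890, 5.61% for KYSE-450 against KYSE-960, 5.47% for KYSE-520 against KYSE-890 and 6.17% for KYSE-520 against KYSE-960. Among the other 33 members, none spanned more than 1.68-fold after this floor. The widest were MIMAT0000687 at 1.68-fold, MIMAT0000722 at 1.65-fold, MIMAT0003180 at 1.46-fold and MIMAT0003331 at 1.36-fold.

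The direction for MIMAT0002816 depended on the scaling. Its normalized intensity was 444.2 in KYSE-520 and 633.6 in KYSE-450, with 2008.1 in KYSE-960 and 1291.9 in KYSE-890, so KYSE-890 and KYSE-960 were the higher lines, whereas they were the lower ones in the deposited values. The log2 ratio of KYSE-520 over KYSE-960, the widest pair, was -2.18 after normalization and 0.57 in the deposited values. For KYSE-450 over KYSE-890 it was -1.03 after normalization and 0.53 in the deposited values, and for KYSE-450 over KYSE-960 it was -1.66 and 0.60. For KYSE-520 over KYSE-890 it was -1.54 and 0.51. No order of the lines is established for this feature.

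What held in the deposited values was a narrow range. MIMAT0002816 spanned 1.51-fold between KYSE-450, the highest, and KYSE-960, the lowest, whereas the 75 features above background on all 4 arrays spanned a median of 2.86-fold, with a range of 1.17 to 95.6. Of these 75 features, 9 had a span as narrow, MIMAT0002816 included. After normalization the span of MIMAT0002816 was 4.52-fold, against a median of 3.18-fold over the same 75, and 21 of them had a span as wide.

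**Figure D3:**
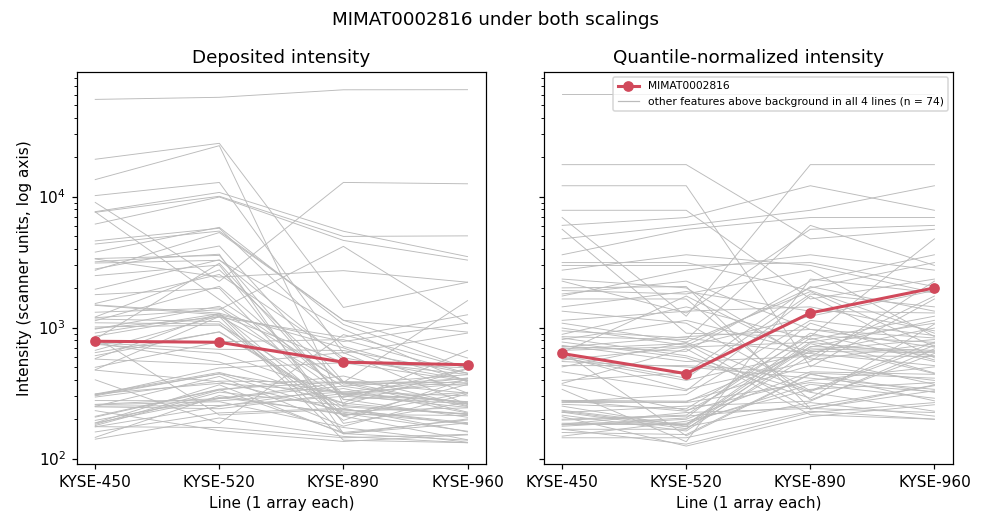
Intensity (vertical log axis, scanner units) of MIMAT0002816 (red) and of the 74 other features above background in all 4 lines (grey), by line, in the deposited values on the left and after quantile normalization on the right. The red points lie between 520.0 and 785.5 on the left, highest in KYSE-450, and between 444.2 and 2008.1 on the right, highest in KYSE-960.

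The features whose normalized pattern was most like that of MIMAT0002816, by Pearson's r of log2 intensity over the 4 lines, were MIMAT0000318, MIMAT0004609 and MIMAT0007883. For MIMAT0000318 r was 0.9997, and its deposited intensities were 1249.5 in KYSE-520 and 1478 in KYSE-450, with 1082.5 in KYSE-960 and 782 in KYSE-890. For MIMAT0004609 r was 0.99 after normalization and -0.35 in the deposited values. For MIMAT0007883 r was 0.99 after normalization and 0.94 in the deposited values. The 4 points share the scaling of their arrays, and 21 of 166 candidate features, those above background in at least 1 line whose normalized values varied, had an r over 0.9.

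The summed intensity of the 42 members was 4112.5 in KYSE-520 and 3680.5 in KYSE-450, with 3428.5 in KYSE-960 and 3703.5 in KYSE-890. As a share of all intensity on the array this was 1.18% in KYSE-520 and 1.29% in KYSE-450, with 1.90% in KYSE-960 and 1.92% in KYSE-890, from 4.91% of the features. The sums include the array background under every feature. The higher shares in KYSE-890 and KYSE-960 went with smaller array totals, which were 349156 units in KYSE-520 and 285341 in KYSE-450, with 180682 in KYSE-960 and 192549.5 in KYSE-890.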

How the data were processed

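The deposited values are 1 intensity per feature and array, linear scanner brightness from a ProScanArray scanner after Hy5 labelling of 500 ng total RNA, per the labels' protocols. No background subtraction, spot averaging or scaling step is recorded per the labels' protocols. All values are multiples of 0.5, none is missing, and array background appears to be left in, which draws ratios of dim features towards 1. The number of arrays limits the precision.

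The members and lists were chosen with earlier results of these data known. The background threshold was the array median plus 3 times the root mean square deviation of the features under the median. Quantile normalization (limma 3.58.1, R 4.3.3) was applied, and values were floored at the array median and compared between lines in 6 pairs at 2-fold. Other steps used Python 3.11.15 and pandas 2.3.3. Members named in the text are those above background, the 5 nearest under the threshold, the 5 brightest, the 3 dimmest, the 5 with the widest normalized span, and, chosen after their values were seen, the members under the median on all arrays. Sequences and coordinates are from RefSeq (GRCh38.p14), matched by the microRNA numbers on the member list. Because the tables used here do not pair accessions with names, comparisons by name were not run: other microRNAs of the locus, the chromosome 19 and miR-17-92 clusters, epithelial and other cell type markers, position along the locus, and GC share against intensity. The squamous identity of the lines was not checked for the same reason.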

Additional observations from a re-analysis of the deposited data

How the results depend on the processing

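No paired analysis was possible because the lines had no replicates. With 2 in place of 3 dim-side SDs, 4 of 42 members were above background on at least 1 array, with 2 each in KYSE-960 and KYSE-890. All features passing also rose in number, to 128 of 856 in KYSE-960, 127 in KYSE-890 and 177 in KYSE-520. With 5 SDs, with a median absolute deviation, or with the 16th percentile (added after seeing the data), the count was 1 on at least 1 array and 1 in KYSE-520. In KYSE-520 these settings passed 121, 142 and 145 of 856 features, in that order. Quantile-normalized values gave 1 in KYSE-520 and 2 in KYSE-960, where 124 and 121 of all 856 features passed. Leaving out each line in turn gave 1 to 2 members on at least 1 array, and 1 without KYSE-520. The share of all features passing on at least 1 array (19.6%) was taken only in the main setting with all 4 lines. The members' counts on at least 1 array in the other settings therefore have no such share beside them.

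Against the background threshold, the median member lay at -0.89 log2 in KYSE-520 and -0.94 in KYSE-450, with -0.88 in KYSE-960 and -0.70 in KYSE-890, and the 8 other alternatives for this level moved it by less than 0.1 log2.

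Members differing 2-fold in the 4 pairs of a brighter with a dimmer array (KYSE-520 and KYSE-450 against KYSE-960 and KYSE-890) numbered 0 of 34 in the deposited values. There 64 to 97 of 713 features differed. With shared medians set equal the members also numbered 0, except 5 of 34 for KYSE-520 with KYSE-890, all higher in KYSE-890. In that pair and setting 171 of 713 features differed, and in the rest of the 4 pairs 69 to 107 did. At 4-fold the members' count was 0, except for KYSE-520 with KYSE-960, where it stayed at 1 of 34, beside 27 of 713 features. In the rest of the 4 pairs 15 to 37 of 713 features differed by 4-fold. At 1.5-fold the pairs of KYSE-960 with each other line, and KYSE-450 with KYSE-890, each gave 2 of 34. In these pairs 107 to 147 of 713 features differed. Without a floor, KYSE-890 gave 3 against KYSE-520 and 2 against each of the remaining lines. With shared medians set equal, MIMAT0002816 changed sign for KYSE-450 over KYSE-890 (0.073 log2) and over KYSE-960 (0.188), and for KYSE-890 over KYSE-960 (0.115). It kept the normalized sign for KYSE-520 over KYSE-890 (-0.365) and over KYSE-960 (-0.25), now under 2-fold, and for KYSE-450 over KYSE-520 (0.437). In the deposited values it changed sign for KYSE-450 over KYSE-890 and KYSE-960 (0.53 and 0.60) and KYSE-520 over them (0.51 and 0.57). It also did so for KYSE-890 over KYSE-960 (0.064). This last pair was under 2-fold in both settings and at -0.64 in the normalized values. The cause was not tested. Of 48 alternative counts of members differing between lines, 30 equalled the main count, which was 0 or 1 in each pair. Most of these settings reuse the same normalized values, so the tally is a description only. Signal under or close to the background threshold limits 41 of the 42 members.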
